A study of Mus musculus with 15 samples.

Results

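The clustered histone genes supply the nucleosome proteins for newly replicated DNA, and they are described here across 15 RNA sequencing libraries of a mouse pancreatic acinar cell line treated with retinoid receptor ligands. Members were the genes whose older mouse symbol begins with Hist1h, Hist2h, Hist3h or Hist4h, leaving out symbols with "-ps". They numbered 66 of the 43432 genes in the deposited table. There were 54 in the Hist1 cluster on chromosome 13, 9 in the Hist2 cluster on chromosome 3, 2 in the Hist3 cluster on chromosome 11, and Hist4h4 on chromosome 6. By class, 6 encode the linker histone H1, 20 encode H2A, 15 encode H2B, 12 encode H3 and 13 encode H4. The annotation calls 64 of them protein-coding and types 2 H2A members, Hist1h2aj and Hist1h2al, as pseudogenes. The group was chosen because its values in replicate 3 of 9-cis retinoic acid stood out, so the values of that library are given as a description, with no test.

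The line, 266-6, comes from a mouse pancreatic tumour driven by a viral T antigen under an elastase promoter, and every group carries that background. After 24 h of culture in a stripped medium, cells received for 24 h AM580 (an agonist of the retinoic acid receptor RARα), CD3254 (an agonist of its partner receptors, the retinoid X receptors, RXR), both together (AM+CD), 9-cis retinoic acid (a ligand of both receptor families) or the vehicle DMSO. Each of the 5 treatments had 3 libraries, and the series addresses how ligands of RARα and RXR act on each other. The labels give no ligand concentration, library kit, poly(A) selection or batch. They also do not say whether replicates were separate cultures, so p-values measure only the spread between these libraries, which may be technical.

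Replicate 3 of 9-cis retinoic acid was also the shallowest library, with 14600962 reads on genes, where the other 14 held 28501170 to 46801058. In that library 63.0% of reads were given to no gene, against 18.1% to 28.5% elsewhere. Of 16 acinar marker genes, 14 had a median of at least 1 CPM. CPM are counts per unit of sequencing depth, here after TMM scaling, which corrects for library composition. The first principal component of the 14 libraries, with 54.3% of the variance, parted replicate 1 of AM580, replicate 1 of CD3254, replicate 2 of AM+CD, replicate 1 of 9-cis retinoic acid and replicate 1 of DMSO from the other 9.

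Most messenger RNAs end in a poly(A) tail. Transcripts of the replication-dependent histone genes end instead just after a conserved stem-loop, which is bound by the stem-loop binding protein SLBP, and the downstream sequence is cut away with the help of the U7 small nuclear ribonucleoprotein. Cells make them chiefly in S phase, when the coactivator NPAT drives the clusters, and degrade them when DNA synthesis stops. Some of these genes also carry a poly(A) signal further downstream and can give a polyadenylated transcript, and libraries made by selecting poly(A) tails recover the unpolyadenylated form poorly. Since the labels do not say how these libraries were made, the reads on a member are given without reading from them how much histone mRNA a cell holds.

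The stem-loops are shown first because they mark the RNA end that sets these transcripts apart. A search of the GENCODE M21 transcript models on GRCm38 looked for the histone stem-loop consensus, with perfectly paired arms of 6 bases around a loop of 4. It found the stem-loop in 42 members and not in the models of the other 24, many of which end at the coding sequence. No match says only that the consensus is not within the model. In the 26-base stretches below, capitals mark the stem-loop, and the coordinates are those of the 16 capital bases. The first 3 are from the H1 member with the largest ratio in replicate 3 of 9-cis retinoic acid and the H3 and H4 members with the highest means, and the last 2 are from members that did not differ there.

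Hist1h1d, chr13:23555787-23555802 (+): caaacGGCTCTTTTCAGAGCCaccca

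Hist1h3c, chr13:23745047-23745062 (-): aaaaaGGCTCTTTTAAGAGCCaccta

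Hist1h4d, chr13:23581950-23581965 (+): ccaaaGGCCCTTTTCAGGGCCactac

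Hist1h4i, chr13:22040966-22040981 (-): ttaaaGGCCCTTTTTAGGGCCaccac

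Hist3h2a, chr11:58955172-58955187 (+): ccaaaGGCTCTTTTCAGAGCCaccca

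There were 6 different stem-loops. The form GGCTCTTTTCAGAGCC occurred in 24 members, 3 of H1, 10 of H2A, 6 of H2B and 5 of H3. A form with another loop base, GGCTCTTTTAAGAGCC, occurred in 6 members, and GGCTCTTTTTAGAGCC in Hist2h2ac. The H4 genes used other arms: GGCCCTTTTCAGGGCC in 7, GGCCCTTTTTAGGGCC in Hist1h4i and Hist2h4, and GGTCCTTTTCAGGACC in Hist1h4b and Hist1h4j. Of the 42 models with a stem-loop, 21 ended within 100 bases of it and 21 ran on for more than 100 bases, to 4884 bases in Hist1h1d.

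A poly(A) signal, AATAAA or ATTAAA, lay in the last 60 bases of a model in 17 members and in no model of the other 49. By class, the signal was found in 2 of 6 H1, 2 of 20 H2A, 6 of 15 H2B, 1 of 12 H3 and 6 of 13 H4 genes. The sites of the 3 members that did not differ in replicate 3 of 9-cis retinoic acid, and of Hist1h1c, the H1 gene with the most reads, are shown with the signal in capitals.

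Hist2h2be, chr3:96223705-96223734 (+): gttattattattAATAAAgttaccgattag

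Hist1h4i, chr13:22040639-22040668 (-): ggttctgtttacATTAAAagtattctatgc

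Hist3h2a, chr11:58956785-58956814 (+): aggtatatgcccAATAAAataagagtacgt

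Hist1h1c, chr13:23740330-23740359 (+): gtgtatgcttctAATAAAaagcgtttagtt

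These genes are close copies, which limits what a read count can say of 1 of them. Over all members, the median share of 50-base windows of the transcripts that also occur in another gene was 53.2%. It was above 50% in 34 members, 100% in Hist2h2aa2 and Hist2h3c1, and 0% in Hist1h1a, Hist1h1b, Hist1h1t and Hist2h2be. Reads that aligned at more than 1 place have a row of their own in the table, with 11.4% of reads in replicate 3 of 9-cis retinoic acid and 7.57% to 9.57% in the other libraries. Which genes they fit is not recorded there, so values of single members of H2A, H2B, H3 and H4 are uncertain. Class sums are given beside them, but these leave out the same reads. Another gene model overlapped 25 members. In 19 H2A genes this was a small model typed as miRNA on the other strand, and the labels state no strand setting, so reads of the 2 cannot be told apart. Hist1h1e and Hist1h2be overlap each other on the same strand.

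Summed over the 66 members, the level was 35.9, 21.5 and 19.8 CPM in the AM580 libraries, 15.03, 81.6 and 21.6 CPM with CD3254, 19.1, 32.6 and 25.4 CPM with AM+CD, 18.8, 24.5 and 317.8 CPM with 9-cis retinoic acid, and 18.7, 23.7 and 24.6 CPM with DMSO, each in the order of replicates 1, 2 and 3. Replicate 3 of 9-cis retinoic acid was 14.01 times the median of the other 14 libraries, 22.7 CPM, and replicate 2 of CD3254 was 4.45 times the mean of the other 2 CD3254 libraries. Without replicate 3 of 9-cis retinoic acid and replicate 2 of CD3254, no treatment's values lay wholly above or below those of DMSO. In reads, the members held 3718 in replicate 3 of 9-cis retinoic acid, or 0.0255% of its gene reads, against between 567 and 3656 in the others. The 95% Wilson interval of that share, 0.0247% to 0.0263%, covers counting error only.

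The split by poly(A) signal parted the libraries further. The 49 members without a signal summed to 250.1 CPM in replicate 3 of 9-cis retinoic acid, 50.1 CPM in replicate 2 of CD3254, 15.6 CPM in replicate 2 of AM+CD and 13.4 CPM in replicate 3 of AM+CD. The other 11 libraries lay between 3.39 and 11.2 CPM, and DMSO replicate 3 was the highest of them. The 17 members with a signal summed to 67.7 CPM in replicate 3 of 9-cis retinoic acid, 31.5 CPM in replicate 2 of CD3254 and 28.7 CPM in replicate 1 of AM580, with a median of 15.2 CPM over the 14 libraries other than that of 9-cis retinoic acid. Relative to the medians of the 14 libraries, the sum without a signal was 38.9-fold and that with a signal 4.45-fold higher in replicate 3 of 9-cis retinoic acid. The sum with a signal leans on Hist2h2be, Hist1h1c, Hist3h2ba and Hist1h4i, with medians of 5.65, 3.51, 2.78 and 1.49 CPM. Single genes with a signal and a median above 0 ranged from 0.711 times that median in Hist2h2be to 142.6 times in Hist4h4.

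**Figure D1:**
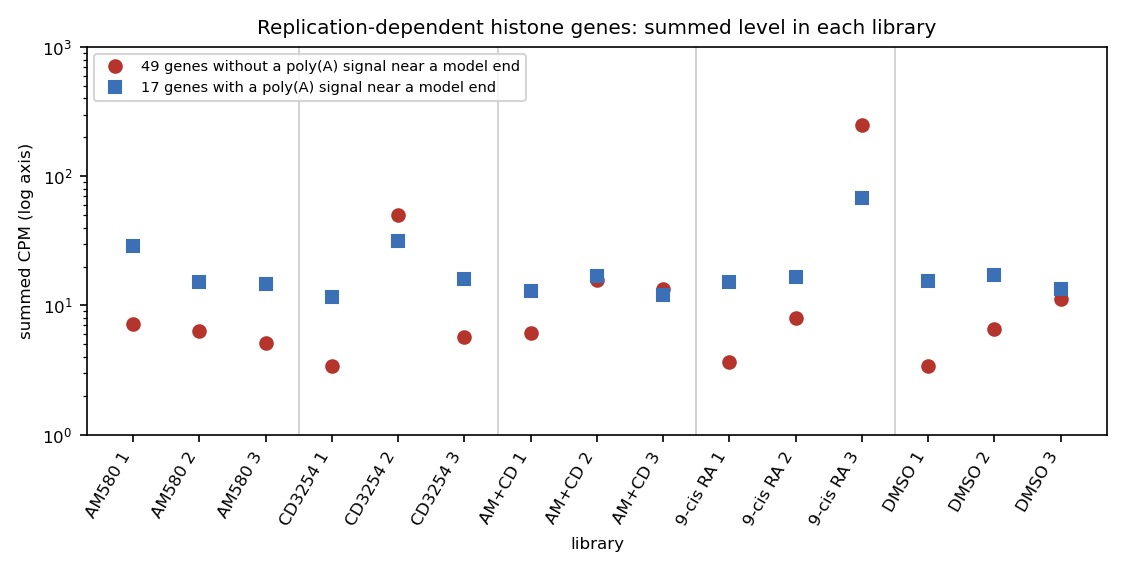
Summed level (CPM, log axis) of the clustered histone genes in each of 15 libraries, with circles for the 49 genes without a poly(A) signal near a model end and squares for the 17 with one. Circles lie above squares in replicate 3 of 9-cis retinoic acid at 250.1 CPM, replicate 2 of CD3254 at 50.1 CPM and, by little, replicate 3 of AM+CD at 13.4 CPM, and below them in the other 12.

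All 5 classes were highest in replicate 3 of 9-cis retinoic acid and second highest in replicate 2 of CD3254. Linker histones, which bind the DNA between nucleosomes, differed most: the H1 genes summed to 149.3 CPM in replicate 3 of 9-cis retinoic acid, 34.3 times the median of the other 14 libraries. H4 and H3, the pair at the centre of the nucleosome, were at 66.3 and 37.2 CPM, 21.3 and 20.8 times their medians. The sums of the outer pair differed less evenly, with H2A at 27.1 CPM, 17.4 times its median, and H2B at 37.9 CPM, 3.45 times its median. The H2B sum leans on a few genes: Hist2h2be alone had a median of 5.65 CPM, against 10.98 CPM for the class. Gene by gene, against the other 2 libraries of 9-cis retinoic acid, the median log2 difference was 3.50 in H2B and 2.85 in H2A. In each of these classes 13 of 14 genes with at least 10 reads were more than 2-fold higher. As a share of all member reads, H1 took 47.0% and H2B 11.9% in replicate 3 of 9-cis retinoic acid. In the other 14 libraries H1 took between 16.9% and 34.2% and H2B between 22.4% and 60.2%. Reads that aligned at more than 1 place are in no class. H1 genes share at most 32.0% of their windows, against a median of 53.2% over members, so these shares may favour H1 in every library.

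Single members were few in reads. Reads were counted on 60 of the 66 members, at least 10 reads over all libraries on 56, and a mean of at least 1 CPM was reached by 11. The 6 with no read were Hist1h2aa, Hist1h2ba, Hist2h2aa1, Hist2h2aa2, Hist2h3b and Hist2h3c1, of which the first pair are known as testis histones. In the 14 libraries, 5 members had a median of at least 1 CPM. Per kilobase of annotated exon, their median levels were 4.52 CPM for Hist3h2ba, 2.25 CPM for Hist1h1c, 2.16 CPM for Hist2h2be, 2.05 CPM for Hist1h4i and 1.44 CPM for Hist1h2bc. The poly(A) signal was found in the first 4 of these 5.

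Hist1h1c (ENSMUSG00000036181, chr13:23738808-23740367), the H1 gene with the highest mean level, had 8.89, 3.55 and 3.12 CPM with AM580, 2.84, 7.23 and 3.94 CPM with CD3254, 3.24, 4.73 and 2.62 CPM with AM+CD, 3.12, 3.47 and 16.8 CPM with 9-cis retinoic acid, and 3.95, 3.86 and 2.69 CPM with DMSO. It was highest in replicate 3 of 9-cis retinoic acid, and the ranges of all treatments overlapped that of DMSO. Its model holds both a stem-loop and a poly(A) signal.

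The other expressed H1 genes were almost silent in most libraries and high in a few. Hist1h1d (ENSMUSG00000052565) had 0.381, 0.110 and 0.0215 CPM with AM580, 0.0530, 3.17 and 0.0216 CPM with CD3254, 0.145, 1.15 and 1.05 CPM with AM+CD, 0.0271, 0.106 and 30.1 CPM with 9-cis retinoic acid, and 0.203, 0.0302 and 0.503 CPM with DMSO. Its value in replicate 3 of 9-cis retinoic acid was 236 times the median of the other 14 libraries, and replicate 2 of CD3254 and replicates 2 and 3 of AM+CD came next.

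Among members with a mean of at least 1 CPM, Hist1h1a and Hist1h1b had the next largest ratios. Hist1h1a (ENSMUSG00000049539) had 0, 0.110 and 0.0215 CPM with AM580, 0.159, 4.33 and 0.0216 CPM with CD3254, 0.0289, 2.40 and 0.849 CPM with AM+CD, 0.0271, 0.490 and 25.7 CPM with 9-cis retinoic acid, and 0, 0.121 and 0.251 CPM with DMSO. Hist1h1b (ENSMUSG00000058773) had 0.293, 0.309 and 0.0645 CPM with AM580, 0.0265, 3.55 and 0.0216 CPM with CD3254, 0.145, 1.04 and 0.599 CPM with AM+CD, 0, 0.192 and 30.5 CPM with 9-cis retinoic acid, and 0.0253, 0.0302 and 0.578 CPM with DMSO. Both were highest in replicate 3 of 9-cis retinoic acid, at 223 and 182 times their medians, and next in replicate 2 of CD3254 and replicate 2 of AM+CD. Neither gene shares a 50-base window with another gene, so their reads are not split among copies. Hist1h1e, which also encodes a linker histone and overlaps Hist1h2be, had 46.2 CPM in replicate 3 of 9-cis retinoic acid and was chosen for mention after its values were seen.

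Among core histones, Hist1h2ak (ENSMUSG00000063021), the H2A gene with the highest mean, had 7.61 CPM in replicate 3 of 9-cis retinoic acid, 0.937 CPM in replicate 2 of CD3254 and at most 0.524 CPM in the other 13 libraries. Hist1h3c (ENSMUSG00000069310), the leading H3 gene, had 3.76 CPM and 2.23 CPM in those 2 libraries, with between 0.292 and 0.937 CPM in the other 13. Hist1h4d (ENSMUSG00000061482), the leading H4 gene, had 14.1 CPM and 3.24 CPM in them, then 1.57 CPM in replicate 3 of AM+CD. Those libraries were the highest and second highest for all 3 genes.

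Hist2h2be (ENSMUSG00000068854, chr3:96221119-96223738), the H2B gene with the highest mean, went the other way. It had 6.87, 5.71 and 5.63 CPM with AM580, 5.49, 5.02 and 5.67 CPM with CD3254, 4.63, 5.80 and 4.49 CPM with AM+CD, 6.56, 5.05 and 4.02 CPM with 9-cis retinoic acid, and 7.40, 7.18 and 4.80 CPM with DMSO. Replicate 3 of 9-cis retinoic acid was the lowest of the 15 libraries for this gene, at 0.711 times the median of the others, where most members were highest.

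To count over members, each library was set against the mean of the other 2 of its treatment on the log2 CPM scale (prior count 2), among genes with at least 10 reads in all. In replicate 3 of 9-cis retinoic acid, 53 of 56 members were more than 2-fold higher and none was more than 2-fold lower, where 11.5% of all 21409 such genes were higher and 12.2% lower. That library chose the members, so nothing is read from its count. The members differed there by a median of 4.36 on the log2 scale, from -0.51 in Hist2h2be to 8.07 in Hist1h1b. The 3 members within 2-fold were Hist2h2be, Hist3h2a at -0.19 and Hist1h4i at -0.14, and the sites printed above show that each has a poly(A) signal. All 41 members without a signal, and 12 of 15 with one, were more than 2-fold higher.

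Replicate 2 of CD3254 was the next highest library, and its values too were in view when the members were chosen, so they are a description and no independent check. In it, 49 of 56 members were more than 2-fold higher than in the other CD3254 libraries and none was more than 2-fold lower, against 3.31% of all genes higher and 5.3% lower. The median difference was 2.66 on the log2 scale, from -0.70 in Hist1h4b to 5.55 in Hist1h1b. The 7 members within 2-fold were Hist1h2ao, Hist1h4b, Hist1h4m, Hist2h2be, Hist2h3c2, Hist3h2a and Hist3h2ba, of which the last 2 and Hist2h2be have a poly(A) signal. These counts compare libraries of 1 treatment with each other, and no test was made of them.

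**Figure D2:**
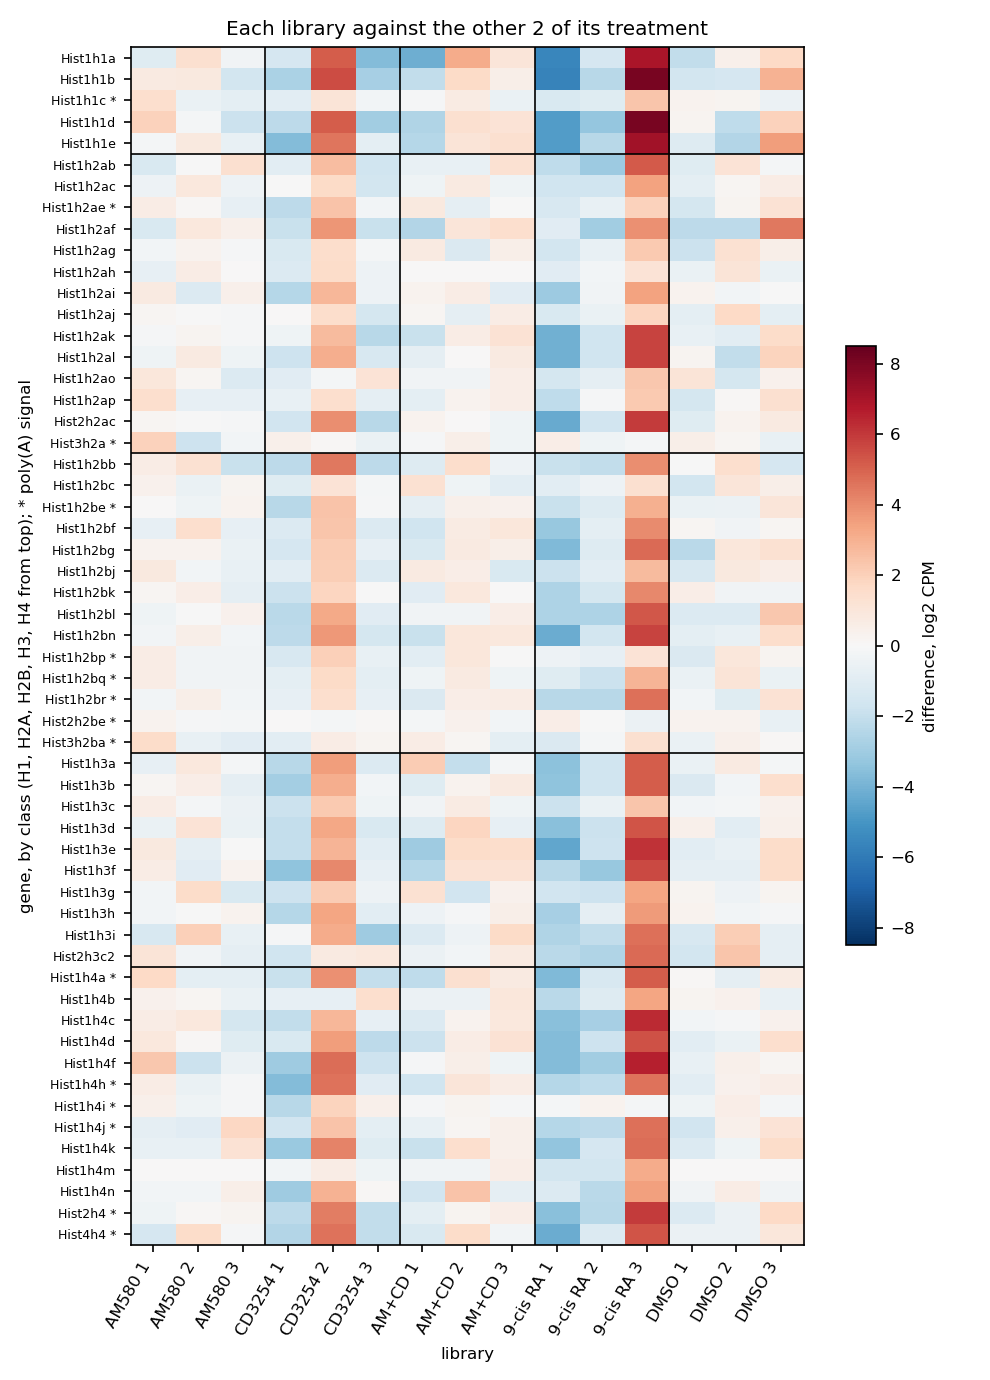
Difference (log2 CPM, colour) between each library and the mean of the other 2 libraries of its treatment for 56 clustered histone genes, grouped by class, with an asterisk for genes with a poly(A) signal. Red columns mark replicate 3 of 9-cis retinoic acid, with a median of 4.36, and replicate 2 of CD3254, with a median of 2.66, and the paler rows Hist2h2be and Hist3h2a stay near 0 in both. Since each library is set against its own group, the other libraries of those 2 treatments appear blue.

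In the remaining libraries the counts were smaller. DMSO replicate 3 had 21 of 56 members more than 2-fold higher than the other DMSO libraries, against 5.95% of all genes, with Hist1h2af at 4.48 on the log2 scale. AM+CD replicate 2 had 14 members higher, against 13.4% of all genes, and AM+CD replicate 3 had 10, against 5.4%. In the AM580 libraries the counts of higher members were 8, 7 and 3, against 15.9%, 5.5% and 7.43% of all genes. For replicate 1 of AM580 and replicate 3 of AM580 the members' shares were near or below those of all genes.

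Across the 56 members, the difference in replicate 3 of 9-cis retinoic acid and that in replicate 2 of CD3254 had a Pearson correlation of 0.76 and a Spearman correlation of 0.77. This is a description only: the first of these libraries chose the members, the points are genes and not replicates, many share sequence, and no correlation over other genes is set beside it. The correlation was 0.75 (Pearson) over the 41 genes without a poly(A) signal and 0.80 over the 15 with one. In both libraries the H1 genes Hist1h1b and Hist1h1d differed most.

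**Figure D3:**
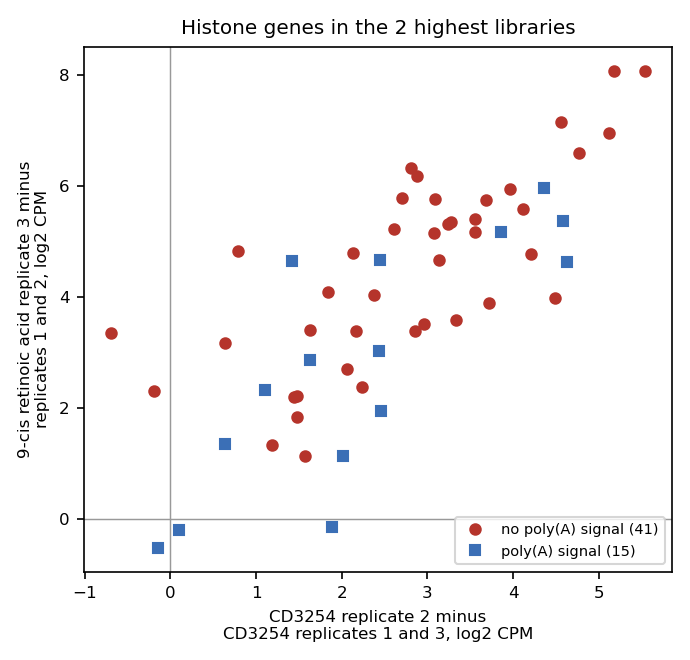
Difference (log2 CPM) of 56 clustered histone genes in replicate 3 of 9-cis retinoic acid (vertical) and replicate 2 of CD3254 (horizontal), each against the other 2 libraries of its treatment, with circles for genes without and squares for genes with a poly(A) signal. The points run from the lower left to the upper right with a Pearson correlation of 0.76, and the 3 squares near or below 0 on the vertical axis are Hist2h2be, Hist3h2a and Hist1h4i.

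The libraries that were high in histone reads were also high in other RNAs that carry no poly(A) tail. Rn7sk, the 7SK RNA that restrains transcription elongation, had 125.6 CPM in replicate 2 of CD3254, 70.0 CPM in replicate 3 of 9-cis retinoic acid and 66.1 CPM in replicate 2 of AM+CD, and between 1.27 and 11.7 CPM in the other 12. Rpph1, the RNA of ribonuclease P, had 29.1, 26.8 and 7.49 CPM in the same 3 libraries and at most 2.17 CPM in the others. Rn7s2, a signal recognition particle RNA, had 26.9, 51.4 and 12.5 CPM in them and at most 2.03 CPM in the others. The order of these libraries was not that of the histone genes: AM+CD replicate 2 was close to replicate 3 of 9-cis retinoic acid in Rn7sk, but had 15.6 CPM on the histone genes without a poly(A) signal where that library had 250.1 CPM. Their part in the histone differences was not tested.

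Other small RNA classes did not all follow. The 41 scaRNA genes, which guide modification of spliceosomal RNAs, summed to 21.2 CPM in replicate 3 of 9-cis retinoic acid and 13.7 CPM in replicate 2 of AM+CD, with a median of 2.02 CPM over the 14 libraries. The 1484 snoRNA genes summed to 55.0 CPM in replicate 3 of 9-cis retinoic acid, against a range of 43.8 to 66.4 CPM in the others. Malat1 and Neat1, long RNAs of the nucleus, were highest in other libraries, at 662.3 CPM in replicate 3 of DMSO and 163.1 CPM in replicate 1 of CD3254. Terc was at most 0.290 CPM in every library. A set of 4 gene models that collect ribosomal RNA reads (Gm42418, Gm23935, Gm15564 and Gm26917, chosen after values were seen) took 14.4% of the gene reads in replicate 3 of 9-cis retinoic acid, 1.76% in replicate 2 of AM+CD, 0.772% in replicate 2 of CD3254 and at most 0.334% in the others.

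Genes that act with histone supply but give mainly polyadenylated messages were not high in these libraries. The 26 genes of DNA replication and S phase, such as the Mcm helicase subunits and Pcna, summed to 0.995 times the 14-library median in replicate 3 of 9-cis retinoic acid, and there 0 of the 26 were more than 2-fold higher and 2, Ccne2 and Pola1, more than 2-fold lower. In replicate 2 of CD3254 the same list was 1.09 times the mean of the other CD3254 libraries, and none of its genes was more than 2-fold higher or lower. The 14 genes of histone mRNA transcription and processing, among them Npat and Slbp, were at 0.984 times the median in replicate 3 of 9-cis retinoic acid, and the 10 histone chaperones at 0.969. The 11 genes listed as replication-independent histones, variants that are not members, were at 0.862, the lowest of the 15 libraries. The 12 mitosis genes were at 0.682, within the range of the others.

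**Figure D4:**
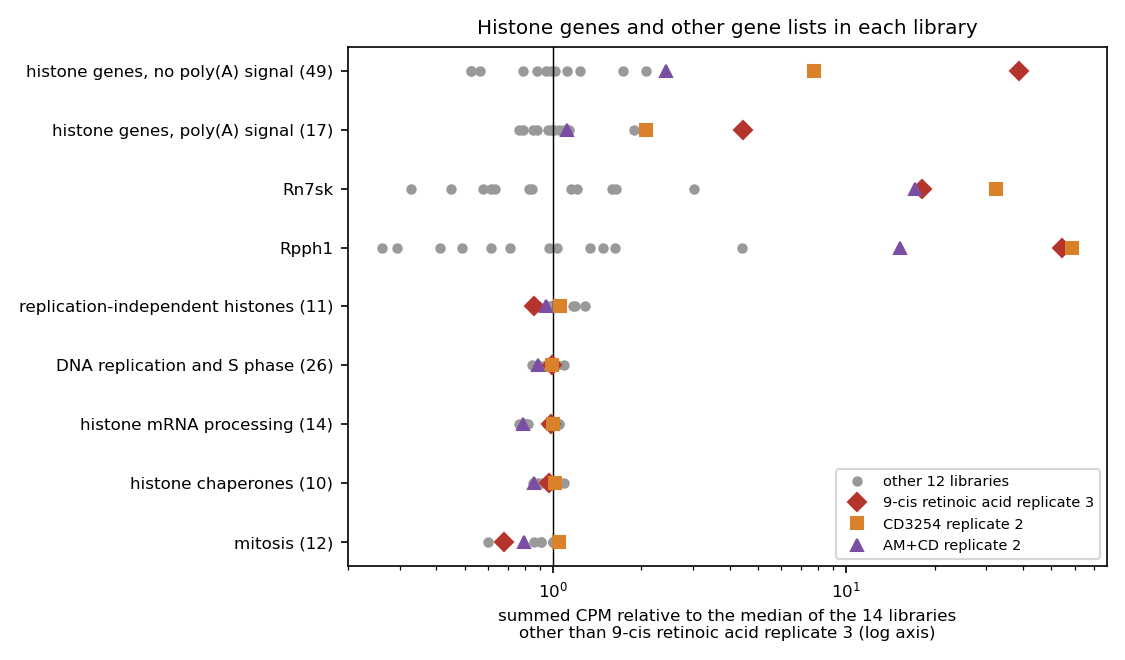
Summed CPM of gene lists in each library relative to the median of the 14 libraries other than replicate 3 of 9-cis retinoic acid (log axis), with diamonds for that library, squares for CD3254 replicate 2, triangles for AM+CD replicate 2 and grey circles for the other 12. The 49 histone genes without a poly(A) signal, Rn7sk and Rpph1 spread widely with the 3 marked libraries farthest to the right, whereas the lists of replication, processing, chaperone and mitosis genes lie close to 1.

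Treatments were compared over 14 libraries, leaving out replicate 3 of 9-cis retinoic acid because it chose the members, so 9-cis retinoic acid has 2 libraries there. Of the 66 members, 37 passed the filter on low counts and 29 did not. Members pass through the group in which they are high, so the 37 are not a fair sample of all. The passing members with the lowest mean were Hist1h2bk at 0.0975 CPM, Hist1h4n at 0.107 CPM and Hist1h3d at 0.130 CPM, and the highest that failed were Hist1h2ai at 0.185 CPM, Hist1h4j at 0.175 CPM and Hist2h2ac at 0.147 CPM.

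No member was called at an adjusted p of 0.05 in any of the 4 comparisons with DMSO or in the interaction of AM580 and CD3254, by edgeR's quasi-likelihood test with Benjamini-Hochberg adjustment over 17069 genes or by DESeq2. Over all genes edgeR called 0.0% for AM580, CD3254, 9-cis retinoic acid and the interaction and 0.00586% for AM+CD, which is the single gene Enpp1. DESeq2 called 11 genes for AM580, 24 for AM+CD and 7 for 9-cis retinoic acid. At an unadjusted p under 0.05, edgeR gave 0 members for AM580 against 1.58% of all genes, 5 for CD3254 against 0.744%, 1 for AM+CD against 1.87%, 0 for 9-cis retinoic acid against 0.826% and 0 for the interaction against 0.867%. The median standard error of a member's log2 fold change was between 1.22 and 1.51 in the comparisons with DMSO, so a change of 2-fold was within the error of a typical member. It was smaller in some, such as 0.23 in Hist2h2be and 0.45 in Hist1h1c for CD3254. How much of the error is counting and how much is spread between libraries was not tested.

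Against DMSO, CD3254 gave the most one-sided set of estimates. With CD3254, 35 of the 37 tested members had a log2 fold change above 0, with a median of 1.38, where the median over all genes was -0.01. The 5 members at an unadjusted p under 0.05, Hist1h2bk, Hist1h4c, Hist4h4, Hist1h4n and Hist1h3f, were all higher, against 0.463% of all genes. Replicate 2 of CD3254 was in view when the members were chosen, and some members passed the filter only with it. These counts and p-values are therefore a description and no independent test of CD3254. The number of members at that level moved with the libraries, and the share of all genes in either direction is given beside it. It was 13 without CD3254 replicate 1 (1.08%), 9 without CD3254 replicate 3 (0.535%) and 2 without DMSO replicate 1 (1.4%). It was 3 without DMSO replicate 2 (0.839%), 8 without DMSO replicate 3 (0.653%) and 3 without AM+CD replicate 2 (0.754%). Without replicate 2 of CD3254, 29 members passed the filter, 7 of them were above 0 and the median was -0.45. In that fit 1 member, which was lower, had an unadjusted p under 0.05, against 0.424% of all genes. The direction of the CD3254 estimates thus rested on that 1 library.

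The 2 members with the smallest p for CD3254 were Hist1h2bk (H2B) and Hist1h4c (H4). Hist1h4c had 2, 44 and 7 reads in the CD3254 libraries, against 1, 1 and 2 reads in the DMSO libraries. Its fitted log2 fold change was 3.37 ± 1.19 (SE), with an adjusted p of 1 by edgeR, and 44 of the 53 reads with CD3254 were in replicate 2. Without that library neither Hist1h4c nor Hist1h2bk passed the filter. Hist1h2bk had 1, 17 and 6 reads with CD3254, against 1, 0 and 0 reads with DMSO. The ratio of its read counts was 21.0, with an exact 95% interval of 3.42 to 862.8 that covers counting error only.

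With AM+CD, 25 of 37 members were above 0, with a median of 1.02 against -0.01 over all genes. The only member at an unadjusted p under 0.05 was Hist1h2bk, where 1.02% of all genes were higher at that level. It had 3, 8 and 7 reads with AM+CD, so all 3 libraries lay above the 1, 0 and 0 reads of DMSO, and its fitted log2 fold change was 3.93 ± 1.28 (SE), with an adjusted p of 1.00 by edgeR. Hist1h4c followed, with 3, 6 and 12 reads with AM+CD and 1, 1 and 2 with DMSO, and a log2 fold change of 2.39 ± 1.23. Without AM+CD replicate 2 the median of the 33 members then tested was 0.70, and without AM+CD replicate 3 that of 35 members was 0.58. Without DMSO replicate 3 it was 1.75, with either 9-cis retinoic acid library left out 0.60 over 45 members, without the filter it was 0.14 over 60 members, and in the 9 libraries of the larger set alone it was 0.28 over 46 members.

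With AM580, 18 of 37 members were above 0 and 19 below, with a median of -0.05 against 0.02 over all genes. Without DMSO replicate 3, 26 were above 0 and the median was 0.43, and without DMSO replicate 2 it was 0.05. With the replicate number as a block the median was 0.04, with 19 members above 0. Other settings lowered the median. It was -0.20 without AM580 replicate 1, and -0.44 in the larger library set alone, where 30 of 46 members were below 0. The smallest p belonged to Hist1h2bn (H2B), with 0, 1 and 0 reads with AM580, against 3, 3 and 13 reads with DMSO. The ratio of its read counts was 0.0449, with an exact 95% interval of 0.00108 to 0.282 for counting error only. Hist1h3e (H3) had 2, 0 and 1 reads with AM580, against 4, 4 and 17 with DMSO. Most of the DMSO reads of both genes came from DMSO replicate 3, and neither passed the threshold.

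With 9-cis retinoic acid, 12 of 37 members were above 0 and 25 below over replicates 1 and 2, with a median of -0.37 against 0.01 over all genes. Adding replicate 3 turned this round, to 34 of 37 above 0 with a median of 3.36, and still no member was called. Without DMSO replicate 3 the median over replicates 1 and 2 was 0.08. Without replicate 1 of 9-cis retinoic acid 23 of 45 members were above 0 with a median of 0.04, and without replicate 2 it was 10 of 45 with a median of -0.86. Each of these fits leaves 1 library of 9-cis retinoic acid, which is assumed to vary like the other groups. The smallest p belonged to Hist1h2bk, with 2 and 6 reads with 9-cis retinoic acid against 1, 0 and 0 with DMSO, and Hist4h4 came next with 1 and 13 reads against 0, 0 and 2. Both rest on a handful of reads, and their adjusted p was 1 by edgeR.

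The interaction asks whether AM580 acts differently once CD3254 is also given, and is the AM580 effect with CD3254 less the AM580 effect alone. Its estimates were above 0 for 11 and below 0 for 26 members, with a median of -0.97 against -0.02 over all genes, and the CD3254 libraries enter it. Without replicate 2 of CD3254 the direction turned, with 22 of 29 members above 0 and a median of 1.93. Of those 29, 5 had an unadjusted p under 0.05, against 0.624% of all genes, and none was called. Here too members pass the filter through the group in which they are high, and 26 passed with AM+CD replicate 2 also left out. The count is therefore a description and no independent test. Without DMSO replicate 1 the median of 37 members was -0.55. The smallest p belonged to Hist3h2ba, an H2B gene with a poly(A) signal, and to Hist1h4i. Hist3h2ba had 8.10, 2.96 and 2.51 CPM with AM580, 2.07, 4.24 and 3.53 CPM with CD3254, 2.69, 2.15 and 1.35 CPM with AM+CD, and 2.08, 3.29 and 2.79 CPM with DMSO. Its interaction was -1.40 ± 0.67 (SE, log2) with an adjusted p of 1.00 by edgeR, and that of Hist1h4i was -1.43 ± 0.75. Without CD3254 replicate 2 they were -1.13 and -0.62.

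**Figure D5:**
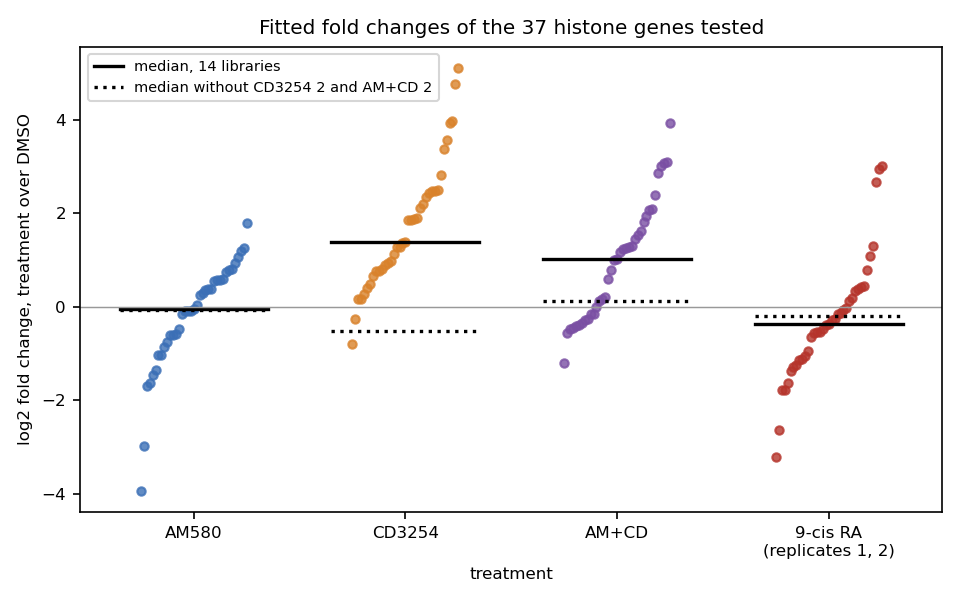
Fitted log2 fold change over DMSO of the 37 clustered histone genes tested, as points sorted within each treatment, with the median from 14 libraries as a solid line and the median without CD3254 replicate 2 and AM+CD replicate 2 as a dotted line, which is over the 26 genes then tested. For CD3254 the solid line is at 1.38 and the dotted line at -0.52, and for AM+CD they are at 1.02 and 0.12.

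No gene of the 5 lists of related, mainly polyadenylated messages was called in any of the 5 comparisons. At an unadjusted p under 0.05, 1 of the 26 replication and S phase genes was found for AM580 and none for CD3254, AM+CD, 9-cis retinoic acid or the interaction, and the other 4 lists had none. Of the 10 genes listed as other RNAs without a tail, a list that also holds Malat1 and Neat1, 8 were tested. By edgeR 5 had an unadjusted p under 0.05 for CD3254, against 0.744% of all genes, with a list median of 3.94 on the log2 scale. Replicate 2 carried these values, as in Rn7sk with 4.45, 125.6 and 1.73 CPM and Rpph1 with 0.477, 29.1 and 0.303 CPM in replicates 1, 2 and 3 of CD3254. Marker lists of ductal, endocrine, fibroblast and immune cells had no gene called in any comparison. Of these markers, 6 of 6 ductal, 1 of 5 endocrine, 4 of 5 fibroblast and 1 of 4 immune genes were tested. Since edgeR called so few genes over all, nothing about cell types is read from this.

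The 250 bases before the transcription start are shown for a linker and an H4 gene, from RefSeq on GRCm38.p6. Both were highest in replicate 3 of 9-cis retinoic acid, as were 52 members in all. A part of the promoters in this was not tested. Capitals mark the CCAAT box, on either strand, and the core TATAAA. RefSeq names these genes H1f4 and H4c4.

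Hist1h1e, chr13:23622559-23622808 (-): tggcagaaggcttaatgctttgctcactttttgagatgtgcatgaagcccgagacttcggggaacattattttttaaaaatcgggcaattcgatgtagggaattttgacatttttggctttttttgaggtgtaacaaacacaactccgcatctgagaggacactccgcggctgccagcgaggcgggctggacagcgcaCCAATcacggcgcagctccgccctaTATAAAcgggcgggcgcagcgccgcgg

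Hist1h4d, chr13:23581318-23581567 (+): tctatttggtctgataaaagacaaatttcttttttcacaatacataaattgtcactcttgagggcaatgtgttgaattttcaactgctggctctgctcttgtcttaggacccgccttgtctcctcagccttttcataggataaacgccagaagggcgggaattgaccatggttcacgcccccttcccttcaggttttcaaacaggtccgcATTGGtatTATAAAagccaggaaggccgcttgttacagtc

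A promoter was matched for 59 members. CCAAT, on either strand, was in 48 of 59 (81.4%), against 34.5% of 27025 promoters of all genes. By class, it was in 6 of 6 H1, 18 of 18 H2A, 13 of 13 H2B and 8 of 10 H3 genes. Only 3 of 12 H4 genes had it, and Hist1h4d, printed above, is 1 of those 3. TATAAA was in 29 of 59 (49.2%), against 13.0%. The octamer ATTTGCAT was in 11 of 59 (18.6%), 7 of them H2A and 4 H2B genes, against 1.61% of all promoters. All 3 motifs were searched on both strands, a match is a description of the letters, and many of these promoters are copies of each other.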

How the data were processed

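RNA of 266-6 cells, extracted with TRIzol, was sequenced as 15 libraries, per the labels. The values are unnormalized counts of reads on each Ensembl gene, deposited by the authors and made with HISAT2 2.2.1, SAMtools 1.18 and HTSeq on mm10, per the submitters' processing notes. No source states the strand setting or the annotation release. Rows of reads given to no gene were left out of totals. Members and gene lists were chosen with earlier results of these data known, and the ribosomal RNA models after their values were seen.

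Levels are CPM with TMM factors. Comparisons used edgeR 4.0.16 in R 4.3.3 (filterByExpr, robust quasi-likelihood test, Benjamini-Hochberg over all genes tested, threshold 0.05) on 14 libraries, and the procedure was tested on simulated data. DESeq2 1.42.0 was an alternative. Stem-loops and poly(A) signals came from GENCODE M21 models and promoters from RefSeq. Members named with values in every library are the highest by mean in each class and the 3 with the largest ratio in 9-cis retinoic acid replicate 3 at a mean of at least 1 CPM; for each comparison, the 2 with the smallest p are named. Same-numbered libraries of AM580 and DMSO, and of CD3254 and DMSO, deviated together (all correlations over 0.1), which those of AM+CD and DMSO did only for replicate 3. Some differently numbered libraries also deviated together, and the replicate block is an alternative.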

Additional observations from a re-analysis of the deposited data

Results flagged for a closer look

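The clustered histone genes summed to 317.8 CPM in replicate 3 of 9-cis retinoic acid, a library outside the comparisons, above the 18.7, 23.7 and 24.6 CPM of the DMSO libraries. In the same library 62.99% of reads were given to no gene, also above every DMSO library. Neither value was tested, since this library led to the choice of the genes.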

How the results depend on the processing

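No member was called in any of the 115 counts under other settings, which were DESeq2, other filters and scaling, a library set term, the larger library set alone, all 15 libraries, each library left out and the replicate block. All 214 fold changes of named members that could be fitted kept their direction, none passed the threshold, and their smallest adjusted p by edgeR or DESeq2 was 0.38. Without CD3254 replicate 2, Hist1h2bk and Hist1h4c failed the filter, so the named CD3254 members do not enter the count there. In that setting the median over members did turn, from 1.38 to -0.45 for CD3254 and from -0.97 to 1.93 for the interaction. None of the 23 values on library totals moved by more than 1 SD. For the sum of a library the SD was that of its own treatment, 171.0 CPM with 9-cis retinoic acid and 36.7 CPM with CD3254. The high libraries themselves widen these SDs, so for those libraries the check could hardly fail and nothing is read from it. Counts over all genes did move: AM+CD against DMSO had 1 gene called, 3 with all 15 libraries or no filter, 24 with DESeq2 or the library set term and 41 in the larger library set alone, and 1 to 6 with single libraries left out. AM580 had 0, then 11 with DESeq2, 5 with the library set term and 7 in the larger set, CD3254 had 0, then 3 and 2 with the last pair, and 9-cis retinoic acid had 0, then 7, 4 and 3. The cause was not tested.

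Same-numbered libraries deviated together in 18 of 26 pairs, with correlations of 0.27 to 0.82. The other 8 pairs, down to -0.73, all hold AM+CD replicate 1 or 2. Every same-numbered pair of AM580 or CD3254 with DMSO was over 0.1, and AM+CD replicates 1 and 2 do not follow their numbers. Differently numbered pairs ranged from -0.82 to 0.75. AM580 replicate 2, for example, had a correlation of 0.46 with DMSO replicate 3 and 0.27 with DMSO replicate 2. A shared number is thus not shown to be a pairing. With the replicate block, 0 members were called in each comparison and 2 genes for AM+CD. Leaving out CD3254 replicate 2 and AM+CD replicate 2 together, chosen after seeing the data, gave 2 genes for AM+CD and 0 members. The filter on low counts left 29 of 66 members untested. The replicate block changed no call of a member.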
